A study of Mus musculus with 6 samples.

Results

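Fatty acid binding proteins are small cytosolic proteins that hold a long-chain fatty acid inside a barrel of beta strands and carry it between membranes, enzymes and nuclear receptors. The genes compared here are paralogs of this family, Fabp3 and Fabp7, measured in RNA from the cortex of mouse embryos of the strain C57BL/6 at embryonic day 12.5. FABP7, also called brain lipid-binding protein, is abundant in radial glia, the progenitor cells of the embryonic cortex, and prefers polyunsaturated fatty acids. FABP3, the heart-type protein, is best known from heart and skeletal muscle, where it carries fatty acids to the mitochondria, and also occurs in neurons.

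The genes were taken by symbol from a table of 12041 gene symbols, keeping for each the row of highest mean level, so that 2 of the 3 genes chosen by name (Fabp3, Fabp5 and Fabp7) are described, and Fabp5 was not analysed here. They had been picked because their transcripts differ in opposite directions between the groups. Their difference is therefore given as a description, with no test. The groups are 3 libraries with a conditional knockout of Hdac1 together with Hdac2 (cKO: HM-5, HM-13, HM-16) and 3 wild-type libraries (WT: HC-1, HC-8, HC-10). Hdac1 and Hdac2 encode histone deacetylases, enzymes that remove acetyl groups from histones as part of corepressor complexes. The Cre driver of the conditional knockout, and whether each library is its own embryo, are not given in the labels, so p-values reflect only library-to-library spread, possibly technical. Levels are FPKM, fragments scaled by the authors to transcript length and library depth. Which reads each row counts is not given, and some rows are low for their gene. The radial glia marker Nes, for example, averaged 0.501 FPKM in cKO and 0.507 FPKM in WT. Ratios, shares, ranks and orders between different genes therefore describe the deposited FPKM and may not give the true order of transcripts.

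Reads recovered from these values total 9712556 to 11473715 in the cKO libraries and 10345264 to 11922665 in the WT libraries. The targeted genes were lower in every cKO library: Hdac1 averaged 51.3 ± 8.46 FPKM in cKO and 201 ± 9.82 FPKM in WT, and Hdac2 48.9 ± 12.1 FPKM in cKO and 207 ± 69.2 FPKM in WT (SD, n = 3 each). The library HM-13 stood apart, with 29.7% of its reads in the ribosomal RNA row Rn45s, against 0.709% and 0.985% in the other cKO libraries and 0.506% to 2.48% in the WT libraries. The label of cortex was checked on markers of the dorsal telencephalon: 6 of 7 had a row. Among them the pallial factor Emx1 had 147 to 179 FPKM in cKO and 166 to 201 FPKM in WT.

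The promoters of both genes are shown because the paralogs, alike in their coding part, carry different sequences at their starts. Each run gives 250 bases before and 50 bases after the RefSeq start on GRCm38.p6, on the plus strand, 5′ to 3′. Capitals mark matches to the motifs searched.
Fabp3 promoter, chr4:130308488-130308787: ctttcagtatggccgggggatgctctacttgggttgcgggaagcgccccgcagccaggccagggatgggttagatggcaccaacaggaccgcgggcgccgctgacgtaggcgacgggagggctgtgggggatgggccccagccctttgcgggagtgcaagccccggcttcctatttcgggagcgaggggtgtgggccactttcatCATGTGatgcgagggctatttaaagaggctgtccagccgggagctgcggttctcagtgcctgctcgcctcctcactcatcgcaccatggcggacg
Fabp7 promoter, chr10:57784673-57784972: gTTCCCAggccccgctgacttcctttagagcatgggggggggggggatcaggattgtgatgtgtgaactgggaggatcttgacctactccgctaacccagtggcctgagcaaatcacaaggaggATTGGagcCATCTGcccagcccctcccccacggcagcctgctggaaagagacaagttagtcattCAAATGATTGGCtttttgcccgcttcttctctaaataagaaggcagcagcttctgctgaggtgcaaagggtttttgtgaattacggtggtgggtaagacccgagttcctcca
The Fabp3 window is rich in CpG, with 22 CpG dinucleotides and 65.0% G and C, and 76.9% of the 32851 RefSeq promoter windows hold fewer CpG. The Fabp7 window holds 6 CpG and 54.0% G and C, near the medians over all windows of 7 CpG and 52.7%. On both strands, 8 motifs were searched: the TATA box TATAAA, the CCAAT box CCAAT, the core TGGGAA of the Notch effector RBPJ, the NFI factor motif TTGGC, the E-box CANNTG, the GC box GGGCGG, the POU factor octamer ATGCAAAT and the PPAR element, 2 copies of AGGTCA with 1 base between them. In the Fabp3 window 1 motif matched, the E-box CATGTG at 45 bases before the RefSeq start. In the Fabp7 window CCAAT matched at 2 places and the E-box at 2, and TGGGAA and TTGGC matched at 1 each, with the downstream CCAAT match overlapping the TTGGC match on the other strand. Over all windows, CCAAT occurs in 37.4%, TGGGAA in 25.6%, TTGGC in 46.7% and the E-box in 72.3%, so matches to each of these are common. The other motifs, absent from both windows, occur in 13.6% (TATA box), 35.7% (GC box), 1.74% (octamer) and 0.0396% (PPAR element) of windows. These matches are letters in a window, not binding sites.

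In their transcripts the genes are similar but not near-identical. Fabp3 (ENSMUST00000070532; chromosome 4, 130308595 to 130315463, plus strand, GRCm38) has 4 exons and a transcript of 823 bases, by GENCODE. That start lies 143 bases before the RefSeq start from which the window above is counted, so the E-box of the window lies downstream of the GENCODE start. Fabp7 (ENSMUST00000020024; chromosome 10, 57784881 to 57788450, plus strand) also has 4 exons, in a transcript of 804 bases that starts 42 bases before the RefSeq start. Their coding sequences, 399 and 396 bases without the stop codon, were identical at 265 of 399 aligned positions (66.4%). How reads align with mismatches was not tested. The longest stretch that both transcripts share exactly lies in the coding part and is shown because it bounds how far a read of 1 gene can match the other without a mismatch.
Shared stretch of Fabp3 and Fabp7, 20 bases: TTCAAGAACACAGAGATCAA
RefSeq also lists a pseudogene, Fabp3-ps1, on chromosome 10, and how the authors' counting treated reads that match both it and Fabp3 is not given in the sources used here.

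Fabp7 transcripts were abundant in WT cortex and lower in every cKO library. Fabp7 had 272, 429 and 234 FPKM in HM-5, HM-13 and HM-16, against 815, 707 and 952 FPKM in HC-1, HC-8 and HC-10. The groups did not overlap: the highest cKO library, HM-13, was 1.65-fold below the lowest WT library, HC-8. The means were 311 ± 103 FPKM in cKO and 825 ± 123 FPKM in WT (SD, n = 3 each), 37.8% of WT and a difference of -1.44 on log2(FPKM + 1). These levels rest on 1878 to 2813 reads per cKO library and 6863 to 7728 reads per WT library, for which counting error alone gives 95% Poisson intervals of at most ± 4.55%. The spread between libraries was wider than that, with a coefficient of variation of 33.2% in cKO and 14.9% in WT.

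Fabp3 transcripts had low FPKM by comparison and were higher in every cKO library. Fabp3 had 15.3, 13.4 and 15.4 FPKM in HM-5, HM-13 and HM-16, against 4.17, 5.89 and 9.68 FPKM in HC-1, HC-8 and HC-10. The groups did not overlap, and the lowest cKO library, again HM-13, was 1.39-fold above the highest WT library, HC-10. The means were 14.7 ± 1.13 FPKM in cKO and 6.58 ± 2.82 FPKM in WT (SD, n = 3 each), a 2.24-fold ratio and a difference of 1.12 on log2(FPKM + 1). Here the depth is shallow: 74 to 111 reads per cKO library and 30 to 66 reads per WT library stand behind the values, with counting intervals of ± 19.1% to ± 23.5% in cKO and ± 24.9% to ± 37.6% in WT. The WT libraries spread 2.32-fold and the cKO libraries 1.15-fold, the reverse of Fabp7, where the spread was 1.83-fold in cKO and 1.35-fold in WT.

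In the fit over all 9359 genes tested, 18.0% had an adjusted p under 0.05, 9.62% higher and 8.39% lower in cKO. The groups did not overlap for 39.1% of tested genes (19.5% higher and 19.6% lower). Since Fabp3 and Fabp7 were chosen on this contrast, nothing is read from their own place among these. By size of the log2 difference Fabp7 ranked 7 from the bottom of the 9359, and Fabp3 ranked 101 from the top. These ranks use the values on which the genes were chosen, so they do not show that the genes stand out. In the authors' deposited table the log2 fold change of cKO over WT is -1.06 for Fabp7 and 0.90 for Fabp3. In bulk tissue, fewer cells of a type and less RNA per cell cannot be told apart.

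**Figure D1:**
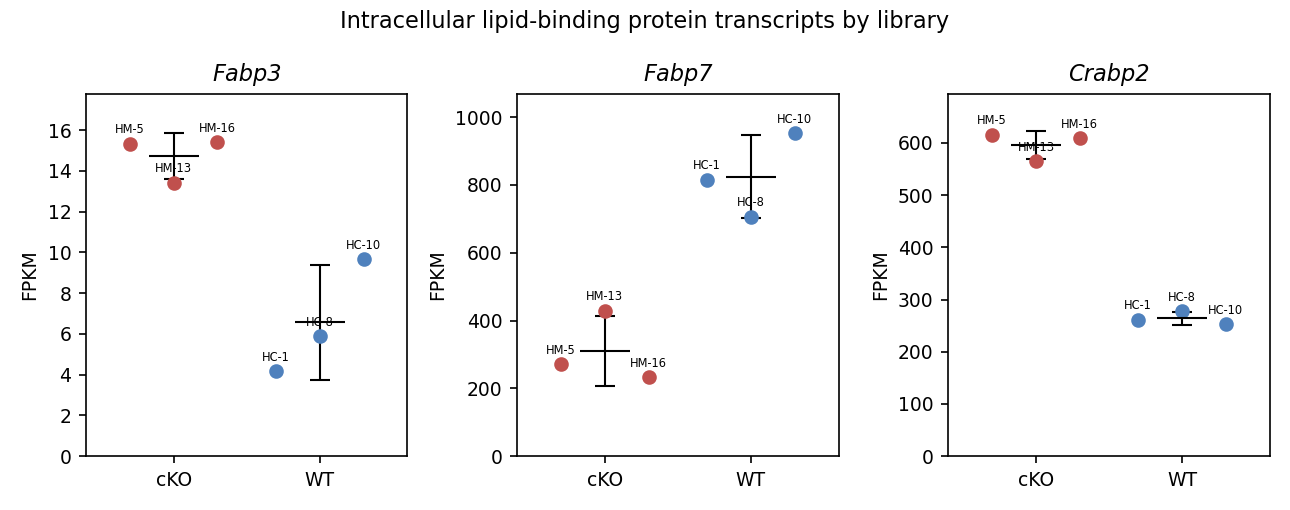
FPKM of Fabp3, Fabp7 and Crabp2 (vertical axes, linear from 0) in the 3 cKO libraries, left, and the 3 WT libraries, right; points are libraries, bars the mean ± SD. Fabp3 lies at 13.4 to 15.4 FPKM in cKO and 4.17 to 9.68 FPKM in WT, Fabp7 at 234 to 429 and 707 to 952 FPKM, and Crabp2 is higher in every cKO library.

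In FPKM, Fabp7 stayed far above Fabp3 in each of the 6 libraries, but by a smaller factor in cKO. The ratio of Fabp7 to Fabp3 was 17.7, 31.9 and 15.2 in HM-5, HM-13 and HM-16, against 196, 120 and 98.3 in HC-1, HC-8 and HC-10. Its mean was 21.6 ± 9.03 in cKO and 138 ± 51.0 in WT (SD, n = 3 each). Fabp3 made up 3.04% to 6.19% of the summed FPKM of both genes in cKO and 0.509% to 1.01% in WT. That sum was 249 to 442 FPKM in cKO and 713 to 962 FPKM in WT, so the difference in Fabp3 was small in FPKM beside that in Fabp7. Among all symbols ordered by FPKM, Fabp7 held rank 153 to 290 in cKO and 74 to 88 in WT, while Fabp3 held rank 3702 to 3926 in cKO and 4426 to 6008 in WT. HM-13 had the highest Fabp7 and the lowest Fabp3 of the cKO libraries, and thus lay nearest to WT for both. It also had the most remaining Hdac1 (61.0 FPKM, against 45.5 and 47.4 in HM-5 and HM-16) and Hdac2 (61.7 FPKM, against 37.6 and 47.5), besides its ribosomal RNA. The part of either in these values was not tested. Without HM-13 the log2 differences were -1.695 for Fabp7 and 1.18 for Fabp3. Fabp3 and Fabp7 were both highest in HC-10 within WT, and Fabp3 was lowest in HC-1.

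**Figure D2:**
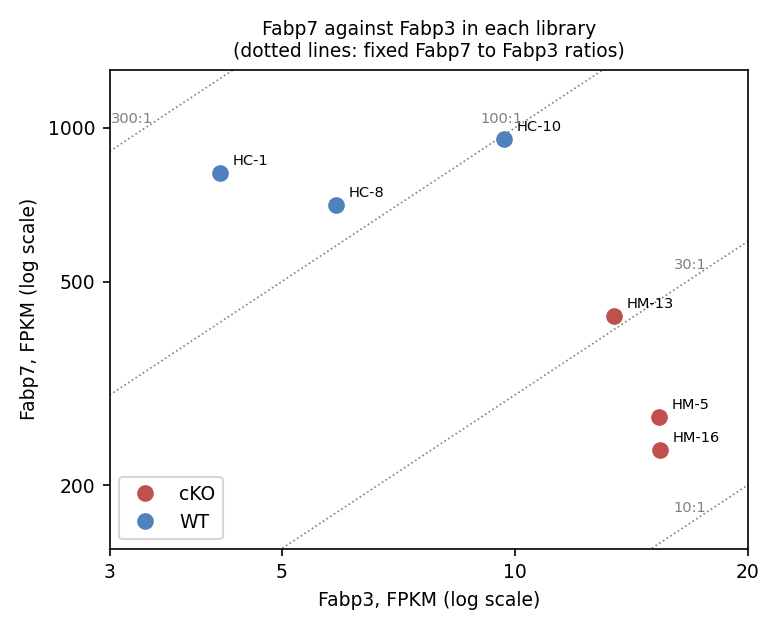
Fabp7 FPKM (vertical, log scale) against Fabp3 FPKM (horizontal, log scale), 1 point per library, cKO red and WT blue; dotted lines mark fixed ratios of Fabp7 to Fabp3. The cKO libraries lie at ratios of 15.2 to 31.9 and the WT libraries at 98.3 to 196.

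Among other genes for intracellular lipid-binding proteins, Crabp2 rose in cKO. Crabp2, the cellular retinoic acid binding protein that delivers its ligand to nuclear receptors, had 616, 566 and 609 FPKM in HM-5, HM-13 and HM-16, against 261, 277 and 252 FPKM in HC-1, HC-8 and HC-10. The cKO libraries lay at more than 2 times any WT library, and the log2 fold change was 1.18 (SE 0.07, limma adjusted p = 0.000307). In WT the order of FPKM was Fabp7 above Crabp2 above Fabp3, with no overlap between neighbours. In cKO it was Crabp2 above Fabp7 above Fabp3, again with no overlap between neighbours, so that Crabp2 and Fabp7 had changed places.

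Of the genes of fatty acid oxidation, the breakdown of fatty acids in mitochondria and peroxisomes, some rose in cKO. Of 23 tested members of the 27 listed, 11 rose, 0 fell and 12 did not pass (47.8% called, against 18.0% of all genes tested). Their median log2 fold change was 0.25, against -0.01 over all tested genes, and 19 of the 23 were above 0. Acaa2, the thiolase of the last step of mitochondrial oxidation, had 70.8, 74.5 and 78.5 FPKM in HM-5, HM-13 and HM-16, against 39.8, 38.4 and 45.3 FPKM in HC-1, HC-8 and HC-10 (log2 fold change 0.85, SE 0.08, adjusted p = 0.00143). Acadm, the medium-chain acyl-CoA dehydrogenase, had 65.5, 66.5 and 71.7 FPKM in cKO and 42.5, 37.7 and 36.1 FPKM in WT (0.80, SE 0.08, adjusted p = 0.00171). In both genes the cKO libraries sat close together and clear of WT. Cpt1a, which encodes the transferase that admits long-chain fatty acids to mitochondria, had 47.6, 39.95 and 48.1 FPKM in cKO and 24.04, 19.5 and 18.9 FPKM in WT (1.09, SE 0.11, adjusted p = 0.00201). Hadh, a dehydrogenase of the same spiral, averaged 59.0 ± 1.65 FPKM in cKO and 44.2 ± 1.73 FPKM in WT (0.41, SE 0.06, adjusted p = 0.00573). These 4 passed without any 1 library. The count of 11 was less firm: it was 5 without HM-5, without HM-16 or without HC-10, and 3 with library totals (Rn45s included) in place of the authors' size factors. With totals that leave Rn45s out it was 12, and without HM-13 it was 10. No member fell in any of these fits. Hadh was among those lost with library totals (adjusted p = 0.567).

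Targets of the PPAR receptors, which are activated by fatty acids and to which FABPs can deliver them, overlap with that list. Of 7 tested besides Fabp3 (itself such a target), 3 rose and 0 fell (42.9% called, against 18.0% of all genes tested). These were Cpt1a and Acadm, named above, and Ucp2. Ucp2, an uncoupling protein of the inner mitochondrial membrane, had 99.2, 77.1 and 98.9 FPKM in HM-5, HM-13 and HM-16, against 43.9, 34.0 and 29.6 FPKM in HC-1, HC-8 and HC-10 (log2 fold change 1.34, SE 0.16, adjusted p = 0.00297). All 3 cKO libraries exceeded all 3 WT libraries, and HM-13 was the lowest cKO library in Ucp2 and Cpt1a. The same 3 genes passed in each alternative fit. Among receptors and coregulators that sense fatty acids, 0 of 3 tested passed with limma, while 1 reached an unadjusted p of 0.05, and 1 passed by voom on recovered reads or without HM-13. The receptor gene Ppard averaged 13.0 ± 2.19 FPKM in cKO and 9.41 ± 1.19 FPKM in WT (adjusted p = 0.0804). The oxysterol receptor gene Nr1h2 averaged 3.18 ± 1.03 FPKM in cKO and 2.53 ± 0.34 FPKM in WT (adjusted p = 0.464).

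Of 16 tested genes for the uptake and activation of fatty acids, 2 rose and 2 fell, 25% called, near the 18.0% of all genes. Mfsd2a, the transporter that brings docosahexaenoic acid into the brain as a lysophospholipid, fell to 18.0, 19.2 and 19.4 FPKM in cKO, against 32.9, 27.8 and 28.9 FPKM in WT (log2 fold change -0.63, SE 0.08, adjusted p = 0.00441). Its groups were clearly apart, and it passed without any 1 library. Acot13, an acyl-CoA thioesterase, fell to 80.7% of WT (adjusted p = 0.0313). The very-long-chain acyl-CoA synthetase gene Slc27a2 rose 1.69-fold (adjusted p = 0.0356) and the acetyl-CoA synthetase gene Acss2 1.66-fold (adjusted p = 0.0364). Of these 4 genes, Acot13 and Acss2 lost their calls without HM-5, HM-16, HC-1 or HC-10 (highest adjusted p = 0.122 and 0.1225), and Slc27a2 without any 1 library but HC-1 (highest adjusted p = 0.133). The count of 4 was 1 without HM-5, HM-16 or HC-10, and 1 with library totals. That 1 was another gene, the acyl-CoA synthetase gene Acsbg1, which was lower in cKO (adjusted p = 0.00946). All 4 named genes lost their calls there (adjusted p = 0.0526 for Mfsd2a, 0.206 for Slc27a2, 0.23 for Acss2 and 0.403 for Acot13).

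Of 11 desaturases and elongases, which introduce double bonds and lengthen fatty acids, 3 rose and 1 fell (36.4% called, against 18.0% of all genes). Scd2, the stearoyl-CoA desaturase of embryonic brain, fell to 366, 348 and 386 FPKM in cKO, against 514, 505 and 489 FPKM in WT (log2 fold change -0.45, SE 0.06, adjusted p = 0.00491). The desaturase-like gene Fads6 rose 2.62-fold from a low level (4.28 ± 1.35 FPKM in cKO and 1.63 ± 0.39 FPKM in WT, adjusted p = 0.0216). Hacd2, a dehydratase of the elongation cycle, rose 1.37-fold (adjusted p = 0.0168) and the very-long-chain elongase gene Elovl4 1.24-fold (adjusted p = 0.0492). Scd2 kept its call without any 1 library. The other 3 each lost theirs in at least 3 of 6 such fits (highest adjusted p = 0.0875 for Fads6, 0.0676 for Hacd2 and 0.168 for Elovl4, which also missed the threshold with a pseudocount of 5, no filter or quantile normalization), so the count of 4 was 1 without HM-5 or HM-16 and 2 without HC-10 or HC-8. With library totals it was 1, Fads6, and Scd2 had an adjusted p = 0.113.

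Of 8 genes of lipid droplets and triacylglycerol turnover, 2 rose and 0 fell, 25% called and near the 18.0% of all genes. Plin3, a lipid droplet coat protein, averaged 57.5 ± 2.89 FPKM in cKO and 38.9 ± 2.24 FPKM in WT (log2 fold change 0.55, SE 0.07, adjusted p = 0.00397). Dgat2, the enzyme of the last step of triacylglycerol synthesis, averaged 6.89 ± 1.11 FPKM in cKO and 3.69 ± 0.70 FPKM in WT (0.75, SE 0.16, adjusted p = 0.0176). Dgat2 lost its call without HM-5, HM-16 or HC-10 (highest adjusted p = 0.0706), which left a count of 1. With library totals the count was 0 (adjusted p = 0.313 for Plin3 and 0.0956 for Dgat2). Over the 8 lists together, without Fabp3 and Fabp7, 21 of 77 tested genes rose and 3 fell, with a median log2 fold change of 0.17. That is 31.2% called, against 18.0% of all genes. The oxidation list alone holds 11 of these calls. The 8 lists also include 12 tested factors reported to act on the Fabp7 gene, given below, which are not genes of fatty acid handling.

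**Figure D3:**
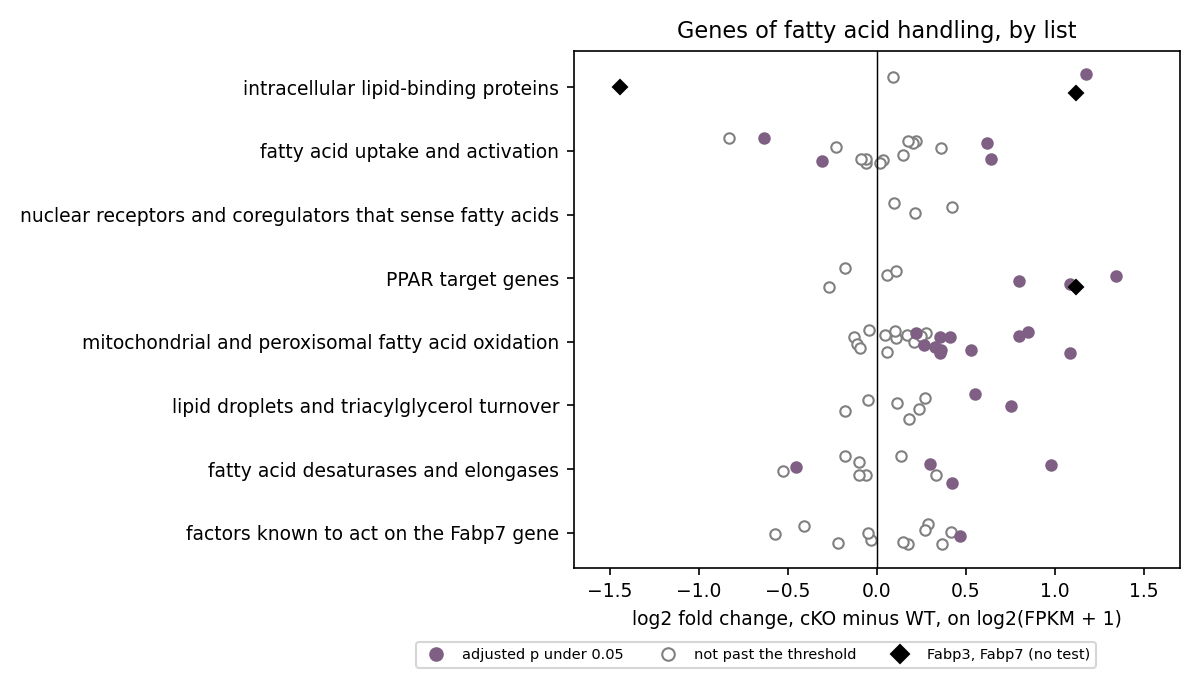
Log2 fold change of cKO over WT (horizontal, on log2(FPKM + 1)) of every tested gene of the 8 lists, 1 row of points per list; filled circles passed an adjusted p of 0.05, open circles did not, and black diamonds are Fabp3 and Fabp7, for which no test is given. In the oxidation list 11 of 23 points are filled, all right of 0, and Fabp7 at -1.44 lies left of every other point.

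Factors reported to act on the Fabp7 gene, among them Notch receptors and effectors, POU factors, Pbx and NFI factors and the neuregulin receptors, showed 1 call among 12 tested (8.33%, against 18.0% of all genes). Of the 18 listed, Pax6 and Nfic had no row, and Rbpj, Nfia, Nfix and Erbb3 did not pass the filter on low values. Nothing can be said here of changes in these. Erbb2, a coreceptor for neuregulins, had 16.7, 13.7 and 18.2 FPKM in HM-5, HM-13 and HM-16, against 11.5, 12.1 and 10.5 FPKM in HC-1, HC-8 and HC-10 (log2 fold change 0.47, SE 0.12, adjusted p = 0.0321). Its call held without HM-13 but not without any other 1 library (highest adjusted p = 0.120), nor with library totals. The groups of the other 11 cannot be called alike from this, since 8 of the 12 had an unadjusted p under 0.05. The list's count was 4 without HM-13, 0 without HM-5, HM-16, HC-8 or HC-10, and 3 with voom.

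Markers of the cells that carry these proteins were set beside the levels. Of 8 tested radial glia markers without Fabp7, 1 rose and 0 fell (12.5% called, against 18.0% of all genes tested). Sox2, Hes1, Hes5, Emx2 and Sox9, 5 of the 8, had a log2 fold change above 0, each with an unadjusted limma p under 0.05. The other 3 were below 0, and the median of the 8 was 0.23, against -0.01 over all tested genes. The summed FPKM of the 12 with a row was 2593 to 2781 in cKO and 2570 to 2602 in WT. Most of that sum was Vim, the intermediate filament vimentin, with 1571 to 1898 FPKM in cKO and 1746 to 1797 FPKM in WT. Without HM-13 3 of the 8 rose, and without HM-5, HM-16, HC-8 or HC-10, 0 did. Of 11 neuronal markers, 9 had a log2 fold change below 0 (median of the 11 -0.36), and the sum was 892 to 1323 FPKM in cKO and 1213 to 1602 FPKM in WT. The neurofilament genes Nefl and Nefm rose and 0 fell (18.2% called, near the 18.0% of all genes). Without HM-13 5 neuronal markers fell and 2 rose, with voom 2 fell and 2 rose, and without HM-5 or HM-16 0 passed. Of 8 intermediate progenitor markers, 7 had a log2 fold change below 0, and the sum was 278 to 381 FPKM in cKO and 369 to 453 FPKM in WT. Of these 1 fell and 0 rose (12.5% called), while 5 fell without HM-13, 3 with voom and 0 without HM-5. Of 10 heart and skeletal muscle markers 1 had a row, Tnni3, with 6.06 to 10.1 FPKM in cKO and 3.42 to 5.62 FPKM in WT. Its mean was 1.82-fold higher in cKO, which did not pass with limma (adjusted p = 0.0549) but passed without HM-13. Of 6 adipocyte markers 0 had a row. A missing row does not show that a cell type is absent, since Pax6, Aldoc and Tnc of the radial glia list had none either. Sums of endothelial markers were 102 to 130 FPKM in cKO and 73.5 to 133 FPKM in WT, of meningeal markers 252 to 405 and 213 to 460, and of epithelial markers 11.3 to 15.7 and 3.23 to 12.6, with 0 calls among 4, 7 and 3 tested (0, 0 and 1 with an unadjusted p of at most 0.05). Calls appeared there for 1 endothelial marker without HC-1, and for epithelial markers without HC-8 (2) or with library totals (1). Erythroid markers summed to 16590 to 24360 FPKM in cKO and 14570 to 19590 FPKM in WT, with 0 calls among 6. Microglial markers summed to 69.1 to 81.03 FPKM in cKO and 51.1 to 62.7 FPKM in WT, with 2 of 6 rising (33.3% called, against 18.0% of all genes). That count was 3 without HC-1, 1 without HM-5 or HC-10, and 0 without HM-16 or with library totals. The part of cell composition in the levels of Fabp3 and Fabp7 was not tested.

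The genes nearest to Fabp7 and Fabp3 in library pattern are listed here. They were picked for likeness in these same values, so their likeness and their calls are given only as a description. Likeness was measured as the root mean square difference over the 6 libraries in log2(FPKM + 1), each gene centred on its own mean, among 4317 tested genes with a mean of at least 10 FPKM. Nearest to Fabp7 was the clone row AK140370 (0.17), with 10.9, 14.4 and 9.98 FPKM in HM-5, HM-13 and HM-16, against 27.8, 23.8 and 31.9 FPKM in HC-1, HC-8 and HC-10. Nxph4, a secreted neurexophilin, followed at 0.19, with 20.1, 25.02 and 18.6 FPKM in cKO and 53.6, 42.2 and 55.0 FPKM in WT. Both were highest in HM-13 within cKO and highest in HC-10 within WT, as Fabp7 was. Draxin, an axon guidance protein (0.26), Mllt11 (0.32) and the deleted gene Hdac1 (0.33) came next. Mllt11 lost its call (adjusted p = 0.0435) without any 1 library but HM-13, where it held (highest adjusted p = 0.138). Nearest to Fabp3 were Gatsl2 (0.22), the protein kinase C gene Prkcb (0.23), BC026208 (0.24), Fam195a (0.24) and Ccdc136 (0.24). Gatsl2 had 43.4, 39.5 and 41.3 FPKM in cKO and 15.1, 18.3 and 19.4 FPKM in WT. In none of these 5 did the WT libraries spread as widely as in Fabp3.

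**Figure D4:**
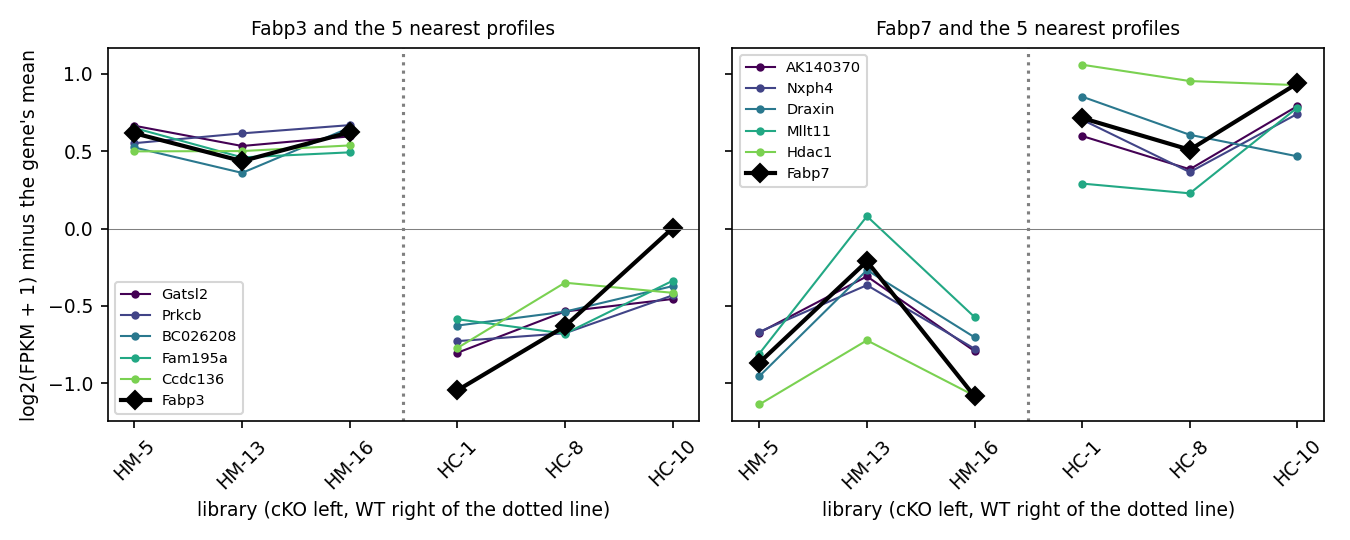
Log2(FPKM + 1) minus each gene's own mean (vertical) in the 6 libraries (horizontal; cKO left of the dotted line, WT right), with Fabp3 or Fabp7 in black and the 5 nearest genes in colour; points of a group are joined only to follow a gene, since libraries have no order. AK140370 and Nxph4 lie at root mean square differences of 0.17 and 0.19 from Fabp7, and HC-10 lies higher for Fabp3 than for its neighbours.

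Fabp3 lies on the chromosome of Hdac1, 0.792 Mb from it on chromosome 4 by their lower coordinates, and Fabp7 lies on that of Hdac2, 20.8 Mb from it on chromosome 10. The levels of genes around them were therefore read. Within 1 Mb of Fabp3, 19 other genes were tested, of which 0 rose and 4 fell: Hdac1 itself, Iqcc, Marcksl1 and Snrnp40 (21.1% called, near the 18.0% of all genes). The window leaned to 1 side, with 15 of the 19 below 0 and 9 at an unadjusted limma p under 0.05. The median over all tested genes was -0.01. Marcksl1 lies 2.5 kb from Hdac1 by their lower coordinates. Iqcc averaged 6.88 ± 0.56 FPKM in cKO and 12.8 ± 1.36 FPKM in WT (log2 fold change -0.81, SE 0.11, adjusted p = 0.0046). Marcksl1, a cytoskeletal regulator, averaged 1167 ± 24.5 FPKM in cKO and 1499 ± 29.3 FPKM in WT (-0.36, adjusted p = 0.0116), and Snrnp40, a spliceosome subunit, 166 ± 6.11 and 199 ± 13.5 FPKM (-0.26, adjusted p = 0.037). Zcchc17, named for its place, overlaps the 3′ end of Fabp3 on the minus strand, and whether the counting used strand is not given in the sources used here. It had 62.3, 62.0 and 61.3 FPKM in cKO and 66.9, 58.0 and 64.3 FPKM in WT (adjusted p = 0.834). Snrnp40 kept its call only without HC-8 among the fits lacking 1 library (adjusted p up to 0.142). Marcksl1 lost its own without HM-5 or HM-16 (adjusted p up to 0.0658), and the count ran from 2 to 5. Quantile normalization and library totals also ended both calls.

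Within 1 Mb of Fabp7, 0 of 5 other tested genes passed with limma or with voom, while 3 had an unadjusted p under 0.05. Smpdl3a, a phosphodiesterase gene named for its place, begins 9.5 kb from the start of Fabp7 and had 6.96, 8.69 and 8.42 FPKM in HM-5, HM-13 and HM-16, against 12.5, 9.07 and 11.1 FPKM in HC-1, HC-8 and HC-10 (log2 fold change -0.39, SE 0.14, adjusted p = 0.0846). How the alleles were made and bred is not given in the labels, and what part position near the deleted genes has in these levels was not tested.

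**Figure D5:**
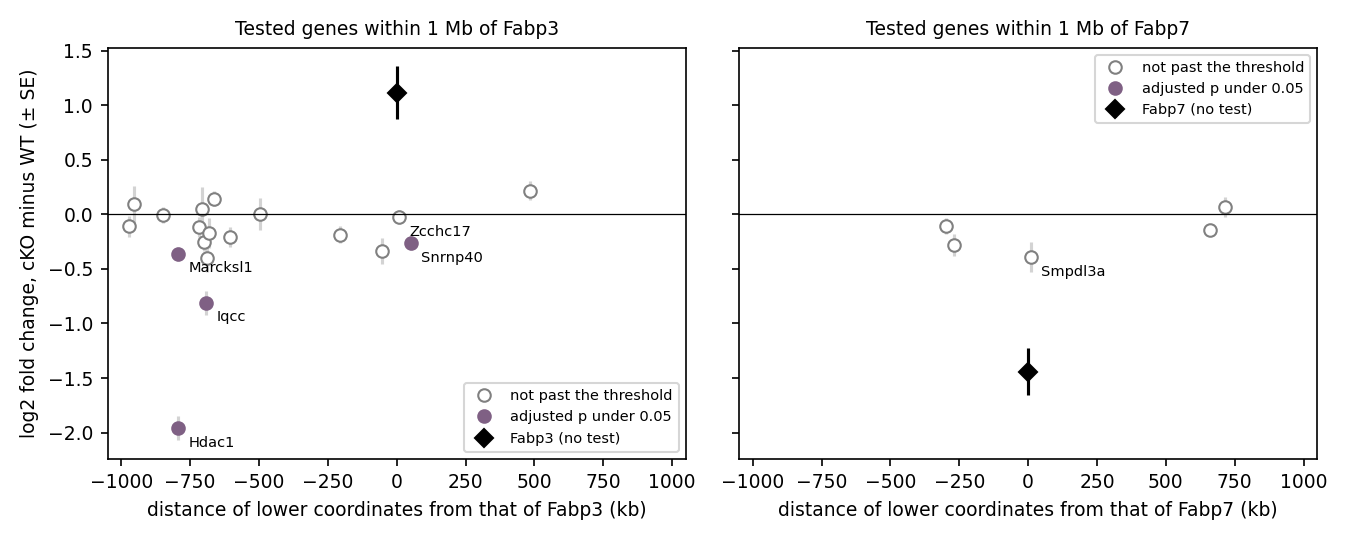
Log2 fold change of cKO over WT (vertical, ± SE) of tested genes by the distance in kb of their lower coordinate from that of Fabp3 (left panel) or Fabp7 (right panel); filled circles passed an adjusted p of 0.05, and black diamonds are Fabp3 at 1.12 and Fabp7 at -1.44, with no test. All other genes but Hdac1 lie between -0.81 and 0.22.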

How the data were processed

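RNA from embryonic cortex was sequenced in 6 libraries made with a TruSeq kit, per the labels' protocols. The submitters' processing notes list bcl2fastq 1.8.4, STAR 2.5.4b, featureCounts 1.6.1, R 3.4.1, DESeq2 1.22.1 and the build mm10; no source used here gives the annotation. The table of 14379 rows holds FPKM per library, per the file headers. The authors also deposited a mean normalized count, used as a signal per row, a log2 fold change, and a p-value and FDR, of which only the mean and the fold change were used. The letters of the column names alone placed them in groups (HC, control; HM, mutant). They carry no replicate numbers.

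A symbol with several rows (1950 of 12041) kept its row of largest mean normalized count. The 9359 symbols reaching 1 FPKM in 3 or more libraries entered a fit of log2(FPKM + 1) by limma 3.58.1 (R 4.3.3; intensity trend, group as the only term), with Benjamini-Hochberg adjusted p under 0.05 called; "rose" and "fell" mean called genes. Fold changes on this scale understate changes of low genes. Whole reads were recovered by scaling each row to its mean normalized count and each library by a fitted size factor (0.804 to 1.19); 100% of values came within 0.01 of a read. They served for depth, counting intervals (95%, exact Poisson, counting error only) and voom. The count tests planned on them were not run, since the deposited values are FPKM. The fit was checked on simulated counts. Promoter windows are RefSeq's, positions are GENCODE M21's (10349 of 12041 symbols found), both on GRCm38, and coding sequences were aligned with Biopython 1.88.

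The genes and lists were chosen with earlier results of these data known. Named are Hdac1, Hdac2, the family genes, in each other pathway list up to 4 called genes with the smallest p (or 2 where none was called), the 5 nearest profiles per gene (predicted genes, Rik clones, Rn45s and Xist, Tsix and Y-linked genes left out), and up to 4 called genes per window. Emx1, Tnni3, Zcchc17 and Smpdl3a were named besides, and some genes that these rules name are not reported here. Alternatives were pseudocounts of 0.1 and 5, no filter, quantile normalization, library totals, voom, summed rows and leaving out each library; library totals without Rn45s were added after seeing the data.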

Additional observations from a re-analysis of the deposited data

How the results depend on the processing

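The log2 differences of Fabp3 and Fabp7 kept their direction in all 14 alternatives run for each. For Fabp3 they ran from 0.79 (pseudocount of 5) to 1.25 (voom), and from 0.87 to 1.396 with 1 library left out. For Fabp7 they ran from -1.54 (library totals) to -1.29 (quantile normalization), and from -1.695 to -1.26 with 1 library left out. The count of changed genes, 1685 of 9359, was 497 with library totals and ran from 511 to 1773 with 1 library left out. It was lowest without HM-5 (511) and HM-16 (545), and was 888 without HC-10 and 1103 without HC-1. The count of changed pathway genes, 24 of 77, was 7 with library totals and ran from 10 to 27 with 1 library left out, being 10 without HM-5, 10 without HM-16 and 11 without HC-10. With totals that leave out Rn45s these counts were 1744 and 28. The cause of the other losses was not tested, beyond the smaller number of libraries. No paired analysis was possible because the columns carry no replicate numbers. The tests of edgeR and DESeq2 listed as alternatives were not run. The lowest depth behind Fabp3 was 30 reads, in HC-1.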
